A study of Glycine max with 24 samples.

Results

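The 48 probe sets described here had a lower signal at low phosphorus (P) than at normal P on every leaf array of the low-P-sensitive soybean accession YH. They were chosen by that contrast from the 75990 probe sets of the array. Of these, 23162 could be chosen: they had a mean log2 intensity of at least 4 in YH leaves at normal P, and identical rows were kept once. Each was scored by its lowest normal P value minus its highest low P value among the 6 YH leaf arrays, and the 60 with the highest scores were taken. From the 60, 12 were left out by name: 8 WRKY factors, NAC6, BHLH300, BHLH320 and NRAMP2A. A probe set is a group of short probes that measure 1 transcript together.

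The study set YH against CD, a low-P-tolerant accession, in seedlings grown in hydroponic boxes. Plants stood for 10 days in half-strength Hoagland solution with 0.005 mmol/L P (low P) or 0.5 mmol/L P (normal P). Leaves and roots were hybridised to Affymetrix Soybean Gene 1.1 ST arrays, with 3 biological replicates per group. The 8 groups were YH leaves low P, YH leaves normal P, CD leaves low P, CD leaves normal P, YH roots low P, YH roots normal P, CD roots low P and CD roots normal P, which gave 24 arrays. No transgene, mutant or further agent was involved, and the labels do not say whether a replicate was 1 plant or a pool.

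Phosphorus is a macronutrient that plants take up by the roots as phosphate and move to the leaves, and a shortage of it reshapes root growth, membrane lipids and metal uptake. Leaves of P-starved plants recycle phosphate from lipids and nucleic acids. Most of the 48 probe sets have no characterised gene behind them in the annotation used here: 27 carry a single LOC identifier, 4 carry another single symbol (DMT1, GASA9, SNAC41 and SIK2), 1 carries several symbols and 16 carry none. DMT1 is a divalent metal transporter of the NRAMP family, which moves iron and manganese ions across membranes. GASA9 belongs to the gibberellin-stimulated, cysteine-rich small peptides, SNAC41 is by its name a NAC transcription factor, and LOC547581 (synonym GSTU21) is a tau-class glutathione S-transferase, an enzyme family that couples glutathione to toxic compounds.

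The arrays were alike in scale, with median intensities between 7.12 and 7.51. Arrays of 1 group correlated at r = 0.935 to 0.989 across probe sets, but only 9 of the 24 arrays had their closest array within their own group. The summed intensity of 13 photosynthesis probe sets was 13191 to 16898 in leaves and 2068 to 4814 in roots. That of 25 root marker probe sets was 266 to 545 in leaves and 1371 to 2387 in roots, so the tissue labels matched both sums. Singly, the root markers were mixed. In CD at normal P, 9 of them were called lower in leaves than in roots and 4 higher, with a median log2 difference of 0.12. All 13 photosynthesis probe sets were called higher in leaves. Calls are defined below. In bulk tissue, fewer cells of a type and less RNA per cell cannot be told apart.

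**Figure D1:**
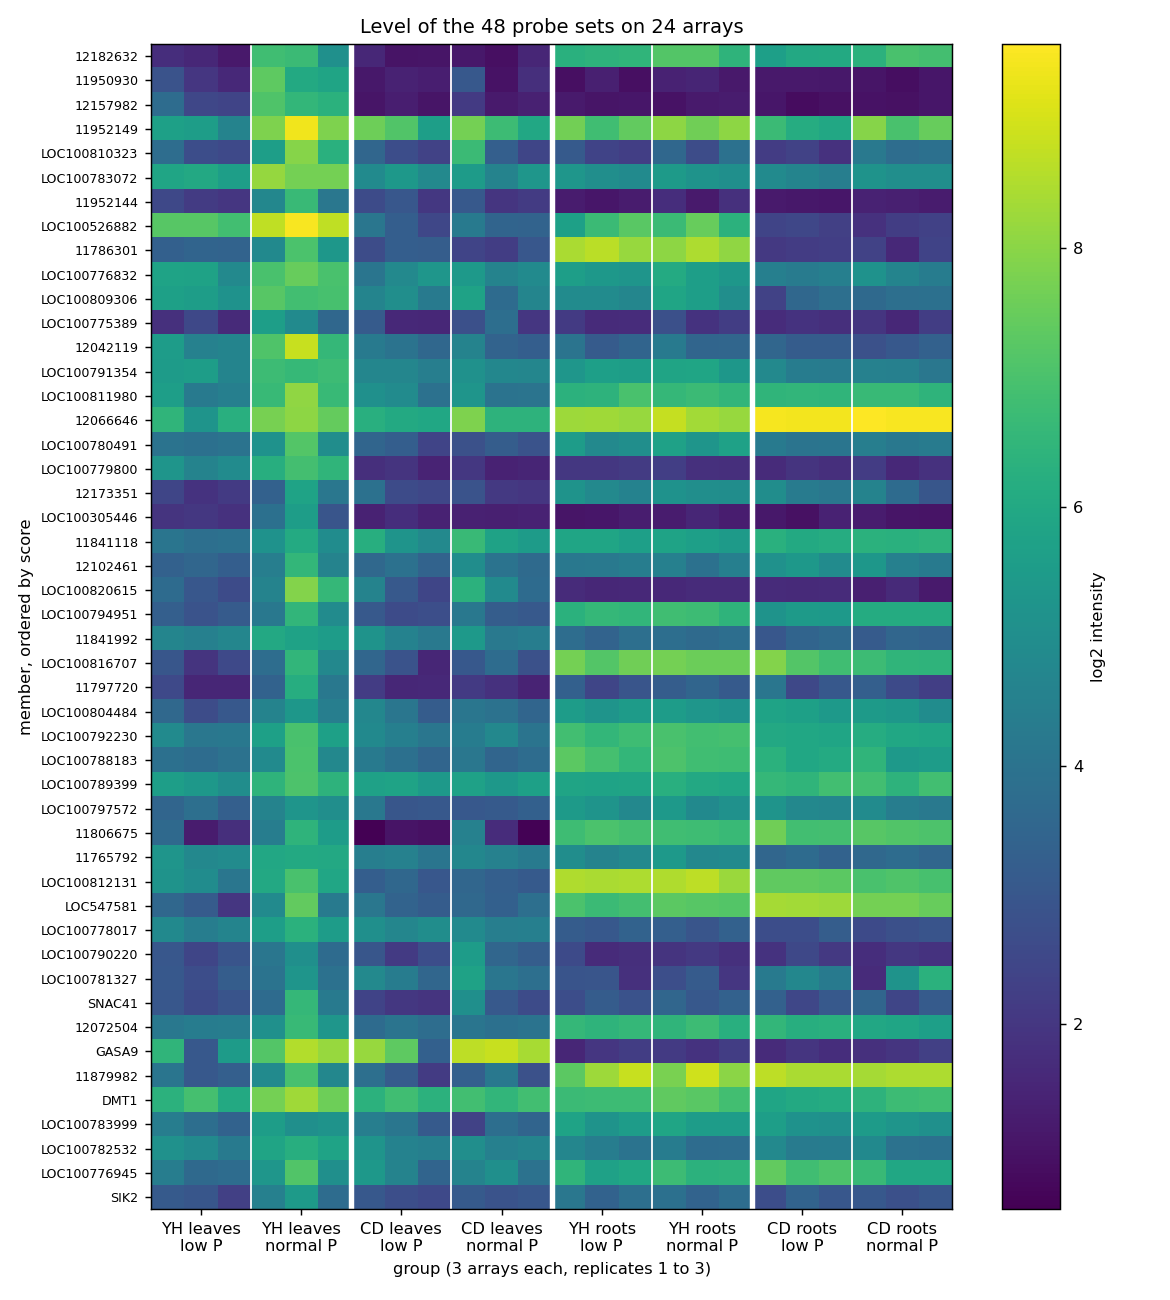
Log2 intensity (colour) of the 48 members (rows, ordered by score) on the 24 arrays (columns, 3 per group). The YH leaves normal P columns are brighter than the YH leaves low P columns in all 48 rows, which is how the rows were chosen, and many rows are bright in roots as well.

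In YH leaves the 48 members lay 2.04-fold to 25.8-fold lower at low P, with log2 differences between -4.69 and -1.03 and a median of -1.83, beside -0.01 over the probe sets that could be chosen. These values chose the members and are a description, with no test. The scores ran between 0.637 and 3.35 with a median of 0.85. The last member inside the limit was SIK2 (score 0.637), and the first probe set outside it was LOC100810725 (score 0.628). SIK2 read 3.11, 2.99 and 2.28 at low P and 4.49, 5.48 and 3.75 at normal P on the log2 scale, and LOC100810725 read 3.27, 2.47 and 2.99 at low P and 3.89, 5.0 and 4.28 at normal P. Of the probe sets that could be chosen, 829 (3.58%) had a score above 0, which means that all 3 low P arrays lay below all 3 normal P arrays.

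The size of these differences varied with 1 normal P array. Replicate 2 was the highest of the 3 YH leaves normal P arrays for 39 of the 48 members, replicate 1 for 8 and replicate 3 for 1. The median of the members was 4.02, 3.70 and 3.60 on the YH leaves low P arrays and 5.61, 6.66 and 5.44 on the YH leaves normal P arrays. Without normal P replicate 2 the median log2 difference was -1.50, and 44 of the 48 were still 2-fold or more lower at low P. The members also varied more in this group than elsewhere, with a median standard deviation of 0.84 in YH leaves normal P, against 0.41 in YH leaves low P and 0.19 to 0.48 in the other 6 groups. In 7 of the 8 groups the highest median was on replicate 1, and the exception was YH leaves normal P.

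**Figure D2:**
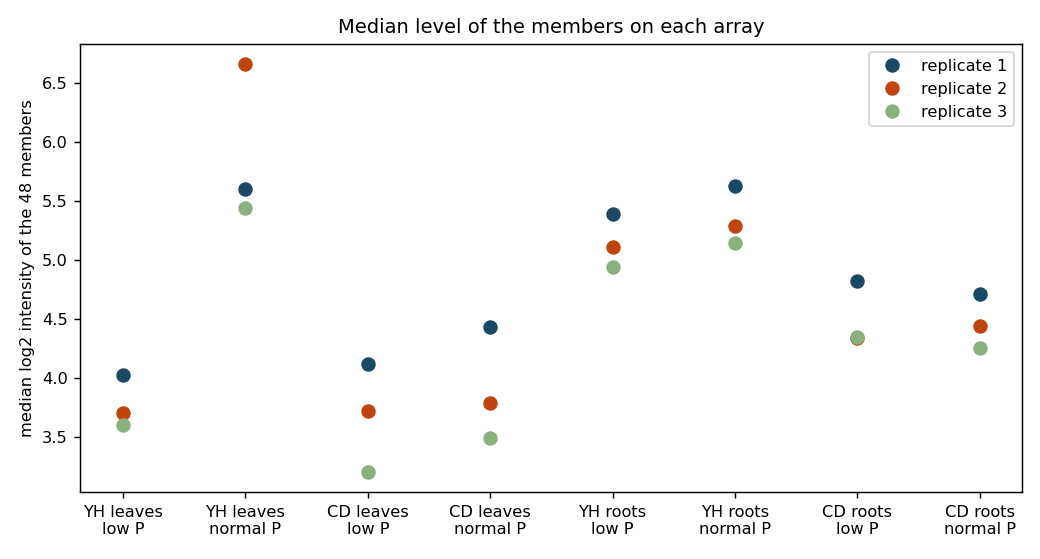
Median log2 intensity of the 48 members (vertical axis) on each of the 24 arrays, by group, with the replicate number in colour. The YH leaves normal P arrays read 5.61, 6.66 and 5.44, with replicate 2 highest, while YH leaves low P and both CD leaf groups lie between 3.20 and 4.43.

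The member with the highest score, 12182632, read 1.76, 1.58 and 1.20 in YH leaves at low P, against 6.81, 6.70 and 5.11 at normal P, a 25.8-fold difference. In CD leaves it read 1.59, 1.04 and 1.08 at low P and 1.15, 0.93 and 1.54 at normal P. These values and those of YH leaves at low P stood around the lower quartile of the arrays, which was 1.54 to 1.67. In roots it was high in both accessions, at 6.38 ± 0.09 in YH roots low P and 6.93 ± 0.42 in YH roots normal P, and at 5.90 ± 0.21 in CD roots low P and 6.75 ± 0.35 in CD roots normal P (SD, n = 3 each).

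The probe sets 11950930 and 12157982, also without a symbol, had their highest means in YH leaves at normal P and low means in CD leaves and in roots. The first read 2.87, 2.0 and 1.62 in YH leaves at low P and 7.36, 6.03 and 5.81 at normal P, an 18.8-fold difference. The second read 3.74, 2.50 and 2.43 at low P and 7.08, 6.54 and 6.31 at normal P, a 13.5-fold difference. In CD leaves 11950930 read 1.15, 1.43 and 1.32 at low P and 3.04, 1.0 and 1.77 at normal P, and 12157982 read 1.07, 1.32 and 1.06 at low P and 2.11, 1.21 and 1.38 at normal P. Their root means lay between 0.98 and 1.39, at the low end of the arrays. For both, the highest CD leaf value was on CD leaves normal P replicate 1.

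LOC100810323 read 3.79, 2.69 and 2.57 in YH leaves at low P and 5.63, 7.95 and 6.28 at normal P, 12.2-fold apart. 11952149 read 5.68, 5.59 and 4.59 at low P and 7.85, 9.37 and 7.83 at normal P. 11952144 read 2.51, 2.14 and 1.99 at low P and 4.75, 6.69 and 4.14 at normal P. All 3 were highest on normal P replicate 2. LOC100775389 read 1.83, 2.51 and 1.63 at low P and 5.63, 4.87 and 3.60 at normal P. 12042119 read 5.53, 4.52 and 4.65 at low P and 7.10, 8.80 and 6.58 at normal P. LOC100811980 read 5.62, 4.25 and 4.47 at low P and 6.62, 8.09 and 6.64 at normal P. Of these 3, LOC100775389 was highest on replicate 1 and the others on replicate 2.

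Several members moved evenly across the replicates. LOC100783072 read 5.88, 6.01 and 5.63 in YH leaves at low P and 8.14, 7.69 and 7.69 at normal P, a 4.0-fold difference. LOC100791354 read 5.50, 5.59 and 4.63 at low P and 6.76, 6.62 and 6.76 at normal P. LOC100776832 read 5.81, 5.75 and 4.81 at low P and 6.99, 7.47 and 6.99 at normal P. In these the normal P arrays lay close together, while low P replicate 3 lay well below the other low P arrays for LOC100791354 and LOC100776832. LOC100809306 read 5.68, 5.59 and 5.15 at low P and 7.23, 6.85 and 6.97 at normal P. LOC100526882 read 7.24, 7.22 and 6.87 at low P and 8.70, 9.48 and 8.71 at normal P. 11786301 read 3.33, 3.49 and 3.44 at low P and 4.84, 7.02 and 5.34 at normal P, with tight low P arrays and a wide normal P group.

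Of the members with a known family, DMT1 read 6.35, 6.91 and 6.05 in YH leaves at low P and 7.70, 8.28 and 7.58 at normal P, a 2.68-fold difference. GASA9 read 6.48, 3.06 and 5.52 at low P and 7.16, 8.55 and 8.18 at normal P, with low P values spread widely. SNAC41 read 3.03, 2.59 and 2.90 at low P and 3.73, 6.57 and 4.25 at normal P. LOC547581, the glutathione S-transferase, read 3.58, 3.14 and 1.99 at low P and 4.87, 7.42 and 4.29 at normal P. For SNAC41 and LOC547581, normal P replicate 2 stood far above the other normal P arrays.

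**Figure D3:**
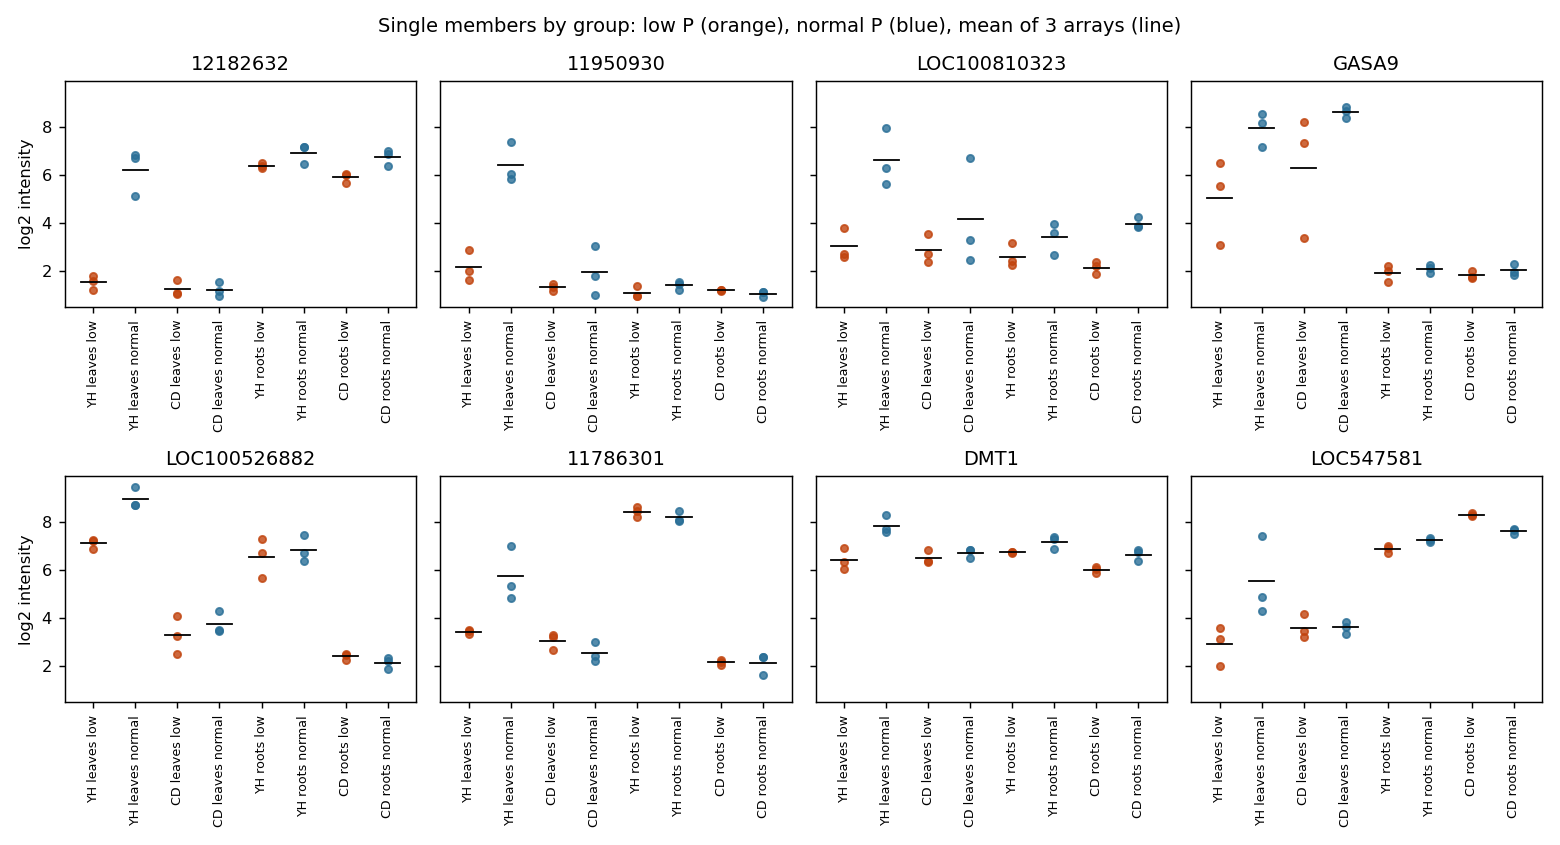
Log2 intensity (vertical axis) of 8 members on the 3 arrays of each of the 8 groups, low P in orange and normal P in blue, with the mean as a line. All 8 are lower at low P in YH leaves, while 11786301 and LOC100526882 are high in YH roots and low in CD roots, and GASA9 is high only in leaves.

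The leaves of the accessions lay apart at normal P. YH leaves normal P had the highest mean of the 4 leaf groups for 45 of the 48 members, and for 35 all 3 YH arrays lay above all 3 CD arrays, against 20.6% of the probe sets that could be chosen. The median level was 5.81 in YH leaves normal P and 3.83 in CD leaves normal P, and the median over members of the log2 difference YH minus CD was 1.83, beside 0.16 over the probe sets that could be chosen, with 41 members at least 2-fold higher in YH and none at least 2-fold lower. At low P the median log2 difference was 0.12, beside 0.15, with 39 members within 2-fold of CD. For 35 members, YH leaves at low P lay within 2-fold of CD leaves at normal P. The rule chose the members by high YH leaf values at normal P, so high counts for YH there follow in part from the choice. Apart from the count without overlap, these counts have no share over other probe sets beside them. They are descriptions without a test.

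LOC100526882 and LOC100779800 were far higher in YH leaves than in CD leaves in both P conditions. LOC100526882 read 4.09, 3.25 and 2.48 in CD leaves at low P and 4.28, 3.48 and 3.45 at normal P, below all 6 YH leaf arrays. LOC100779800 read 5.28, 4.60 and 4.92 in YH leaves at low P and 6.22, 6.89 and 6.47 at normal P. In CD leaves it read 1.78, 1.92 and 1.46 at low P and 2.03, 1.44 and 1.51 at normal P, at the low end of the arrays. GASA9 instead had lower means in YH than in CD: its mean was 5.02 in YH leaves and 6.30 in CD leaves at low P, and 7.96 in YH leaves and 8.63 in CD leaves at normal P. LOC100779800 was singled out after its values were seen.

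In CD leaves, which the choice did not use, no member was called lower or higher at low P. A call required an adjusted p below 0.05 in limma, a linear model fitted to all 75990 probe sets on the 18 arrays outside YH leaves, and at least a 2-fold difference. The background was as low: 0.00263% of all probe sets (0.00432% of those that could be chosen) were called lower and 0.0158% (0.0432%) higher. The members' smallest adjusted p (limma) was 0.766, and 9 members had an unadjusted p below 0.05, against 3.88% of all probe sets. Their median log2 difference was -0.09, and 31 of 48 (against 52.2% of the probe sets that could be chosen) lay below 0. Single arrays turned the sign of this median: it was 0.07 without low P replicate 3, 0.0035 without normal P replicate 1 and -0.23 without low P replicate 1.

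In all, 6 members were 2-fold or more lower in CD leaves by their means without passing the test, and each of these values moved by over 1.5 times without 1 array. GASA9 read 8.20, 7.34 and 3.35 at low P and 8.68, 8.81 and 8.39 at normal P (log2 difference -2.33, SE 0.77, limma adjusted p = 0.983). Without low P replicate 3 its difference was -0.85. LOC100820615 read 4.58, 3.07 and 2.45 at low P and 6.36, 4.89 and 3.72 at normal P, a difference of -1.62 (SE 0.51, limma adjusted p = 0.906), and -0.94 without normal P replicate 1. A fit with the replicate number as a block called it (limma adjusted p = 0.000516), although same-numbered CD leaf arrays did not deviate together. LOC100790220 read 2.97, 2.11 and 2.71 at low P and 5.54, 3.54 and 3.23 at normal P (difference -1.51). SNAC41 read 2.39, 2.02 and 1.91 at low P and 5.05, 3.08 and 2.62 at normal P (difference -1.47). For both, normal P replicate 1 was the high array, and the differences without it were -0.79 and -0.74. 11806675 (difference -1.42) and LOC100810323 (difference -1.29) had differences of -0.30 and -0.01 without the same array. The groups did not overlap for 3 of the 6, GASA9, LOC100790220 and SNAC41.

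DMT1 did not pass in CD leaves, with 6.35, 6.82 and 6.37 at low P and 6.84, 6.51 and 6.84 at normal P (log2 difference -0.21, limma adjusted p = 1.0). For 6 members the highest low P array was below the lowest normal P array, against 2.24% of the probe sets that could be chosen. The 6 were LOC100791354, 12066646, LOC100794951, LOC100790220, SNAC41 and GASA9. The opposite order, low P above normal P without overlap, was seen for 1 member, LOC100305446, against 4.12% of those probe sets.

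**Figure D4:**
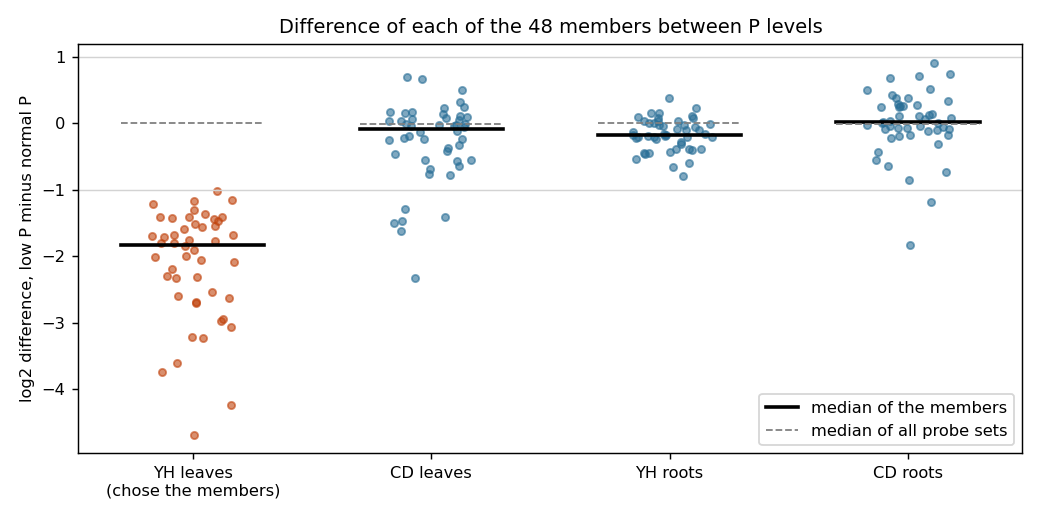
Log2 difference, low P minus normal P (vertical axis), of each of the 48 members in YH leaves, CD leaves, YH roots and CD roots, with the medians of the members (solid) and of all probe sets (dashed). The members' medians were -1.83, -0.09, -0.17 and 0.01, and the first is fixed by the choice of members.

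In YH roots no member was called at low P, nor was any of the 75990 probe sets (background 0%), although 1674 probe sets (2.20%) and 2 members had an unadjusted p below 0.05 in limma. The members' log2 differences ran between -0.80 and 0.39 with a median of -0.17. Of the 48, 36 lay below 0, against 49.0% of the probe sets that could be chosen. DMT1 read 6.70, 6.74 and 6.76 at low P and 7.38, 7.28 and 6.86 at normal P in YH roots, and its 3 low P arrays lay below all normal P arrays, as they did for LOC100809306, LOC100789399 and LOC547581, against 2.19% of the probe sets that could be chosen.

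In CD roots no member was called either, against 0.0908% of all probe sets called lower (0.0389% of those that could be chosen) and 0.312% called higher (0.225%), and the smallest adjusted p of a member was 0.150 (limma). That was DMT1, at 5.88, 6.03 and 6.12 at low P and 6.38, 6.74 and 6.82 at normal P (log2 difference -0.64, SE 0.17), with no overlap between the groups. LOC100810323 read 2.18, 2.36 and 1.85 at low P and 4.22, 3.80 and 3.88 at normal P, a difference of -1.84 (SE 0.72, limma adjusted p = 0.743). Its groups were far apart, and a separate fit of the CD root arrays called it (limma adjusted p = 0.0244). 11952149 read 6.70, 6.16 and 5.98 at low P and 7.94, 6.98 and 7.47 at normal P (difference -1.18). In all, low P arrays lay below normal P arrays for 8 members and above them for 6, against 5.27% and 5.0% of the probe sets that could be chosen. An unadjusted p below 0.05 in limma was seen for 9 members, against 4.98% of all probe sets.

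LOC547581 had opposite values in the roots of the accessions. It read 7.01, 6.70 and 6.90 in YH roots at low P and 7.32, 7.25 and 7.17 at normal P. In CD roots it read 8.36, 8.32 and 8.26 at low P and 7.68, 7.70 and 7.50 at normal P. The log2 differences were -0.38 in YH roots and 0.68 in CD roots, and the test of the difference between them (CD response minus YH response 1.06, SE 0.27) gave a limma adjusted p of 0.276, and 0.0484 when only the root groups were fitted. No member was called in that test, against 0.122% of all probe sets called higher (0.0734% of those that could be chosen) and 0.0158% called lower (0%), and 3 members had an unadjusted p below 0.05, against 3.74% of all probe sets.

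Between the accessions, the members were tested in root arrays, which had not chosen them. The rule asked for a mean of at least 4 in YH leaves at normal P and for no level in CD. This can favour probe sets that read higher in YH, so the counts by direction are not independent of the choice. At normal P, 8 members were called higher in YH roots and 1 lower, against 1.41% of all probe sets called higher (2.21% of those that could be chosen) and 1.71% called lower (1.42%). At low P, 9 were called higher and 2 lower, against 1.19% (1.83%) and 2.29% (1.49%). The called members numbered 12 in all, with 8 called at both P levels.

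The largest difference was that of 11786301. It read 8.44, 8.63 and 8.20 in YH roots and 2.05, 2.17 and 2.23 in CD roots at low P, and 8.04, 8.46 and 8.07 in YH roots and 2.36, 1.62 and 2.38 in CD roots at normal P. The log2 differences were 6.27 at low P (SE 0.24, limma adjusted p = 3.12e-10) and 6.07 at normal P (limma adjusted p = 1.73e-10). In leaves the same probe set read 2.67, 3.27 and 3.22 in CD at low P and 2.40, 2.21 and 3.02 in CD at normal P, so it was high in YH roots at both P levels, intermediate in YH leaves at normal P and low in CD.

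LOC100526882 was next, at 5.67, 6.72 and 7.29 in YH roots and 2.43, 2.50 and 2.26 in CD roots at low P, and at 6.70, 7.47 and 6.37 in YH roots and 1.87, 2.21 and 2.33 in CD roots at normal P. The log2 differences were 4.16 (limma adjusted p = 5.1e-06) and 4.71 (limma adjusted p = 1.37e-06). For both probe sets, every CD root array lay below every YH root array.

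The remaining called members differed by less. LOC100809306 was 1.58 higher in YH roots at low P and 1.70 at normal P on the log2 scale, LOC100812131 was 1.12 and 1.46 higher, and 11765792 was 1.25 and 1.38 higher. LOC100791354 and LOC100780491 were close to 2-fold higher at low P and 1.30 and 1.26 log2 units higher at normal P. At low P, LOC100791354 fell under 2-fold without CD replicate 2 or 3 or YH replicate 2 or 3 (down to 0.92) and with median centring. LOC100780491 lost its call at low P without CD replicate 2 or 3 or YH replicate 1 (down to 0.79), on both other scales, and in the fit of all 24 arrays, which ended its call at normal P too (limma adjusted p = 0.144 and 0.0571). Lower in YH roots were 12066646 (-1.16 at low P and -1.08 at normal P) and, at low P, LOC547581 (-1.44, SE 0.19, limma adjusted p = 0.000113, and 0.105 with all 24 arrays). Of the calls, 5 of 9 at normal P and 4 of 11 at low P held under every alternative. LOC100809306 lost its call at normal P without CD replicate 1 or 2 or YH replicate 1 or 2 (limma adjusted p up to 0.0737), and at low P without CD replicate 1 or any 1 YH replicate (up to 0.148). At normal P, 12066646 lost its call without any 1 of the CD replicates or without YH replicate 2 or 3 (up to 0.0943).

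**Figure D5:**
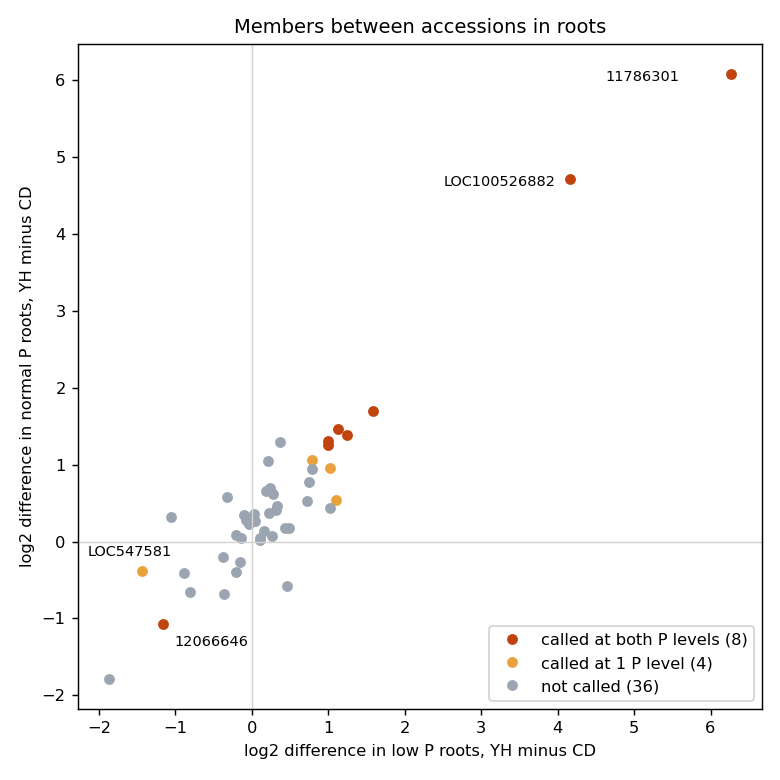
Log2 difference YH minus CD of the 48 members in low P roots (horizontal axis) and normal P roots (vertical axis), coloured by whether limma called them. 11786301 and LOC100526882 stand far from the other members, at differences above 4, and 36 members were not called at either level.

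Members differed in the tissue where they were higher. In CD plants at normal P, the log2 difference leaves minus roots was above 0 for 24 members and below 0 for 24, with a median of -0.08. In CD plants at normal P, 7 were called higher in leaves than in roots and 19 lower, against 6.92% of all probe sets called higher (15% of those that could be chosen) and 7.83% called lower (7.51%). For 18 members both YH root means also lay above the YH leaves normal P mean, and 27 members had their highest mean of all 8 groups in YH leaves normal P. In YH the median of leaves minus roots over members was 0.88 at normal P and -0.68 at low P. The YH leaf arrays chose the members, so the YH values are descriptions.

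GASA9 was the most leaf-bound, at 8.68, 8.81 and 8.39 in leaves and 1.82, 1.96 and 2.29 in roots (log2 difference 6.60, SE 0.77, limma adjusted p = 2.86e-06). LOC100820615 was 3.58 higher in leaves, LOC100790220 2.21, LOC100778017 1.83 and LOC100526882 1.60. In CD roots at normal P, LOC100820615 read 1.37, 1.66 and 1.22, around the lower quartile of the arrays.

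On the root side, 12182632 was 5.54 log2 units lower in CD leaves than in CD roots (SE 0.23, limma adjusted p = 6.8e-12). Its leaf values stood around the lower quartile of the arrays, so the size of this difference is not exact. 11879982 read 3.31, 4.17 and 2.80 in leaves and 8.36, 8.48 and 8.46 in roots (difference -5.01), and 11806675 read 4.52, 1.72 and 0.61 in leaves and 7.25, 7.13 and 7.06 in roots (difference -4.86). LOC547581 differed by -4.02 and LOC100812131 by -3.70. In YH leaves, low P values were 4.06, 3.05 and 3.29 against 4.88, 6.95 and 4.74 at normal P for 11879982 and 3.66, 1.26 and 1.78 against 4.39, 6.44 and 5.55 for 11806675.

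DMT1 was the single member of the 8 pathway lists searched by symbol. Only the 4 members with a single symbol other than a LOC identifier could be matched. The lists therefore cannot show which pathways the other members belong to. Of 21 iron and metal homeostasis probe sets, 2 were 2-fold or more lower in YH leaves at low P and none higher. The shares over all probe sets were 0.576% and 0.32%. The 2 were DMT1 and NRAMP2A, which was left out of the members by name. The YH leaf contrast behind the choice of members had picked both, so this count is a description and no test of the list. NRAMP2A read 5.24, 6.24 and 5.44 in YH leaves at low P and 7.49, 6.96 and 7.13 at normal P, a log2 difference of -1.55, beside -1.42 for DMT1. In CD leaves none of the 21 was called. In CD roots 2 were called lower at low P, against 0.0908% of all probe sets, among them NRAMP7 (-1.25, limma adjusted p = 0.0051). The other NRAMP probe sets differed in YH leaves by -0.76 to 0.59.

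The 66 phosphate starvation probe sets (SPX, PHR, phosphate transporters and acid phosphatases among them) included no member, and none was 2-fold changed in YH leaves. Members with a LOC identifier or no symbol could not be matched to this list, so its lack of members says little about them. Among 131 ERF, MYB, BHLH and BZIP factors, 9 were 2-fold or more lower in YH leaves and none higher. BHLH300 and BHLH320, left out of the members by name, were among the 9. The shares were 0.576% and 0.32% of all probe sets, and 1.37% and 0.54% of those that could be chosen. List counts in YH leaves rest on the values that chose the members and are descriptions. None of the 131 factors was called in CD leaves. Of 20 jasmonate and wounding probe sets, 3 were 2-fold or more higher in YH leaves and none lower, against the same shares. Of 36 flavonoid and phenylpropanoid probe sets, 3 were higher and 1 lower, and of 48 heat shock probe sets 1 was higher and 1 lower. None of the 13 photosynthesis and 18 cell wall and peroxidase probe sets changed 2-fold. A further 2 lists were chosen after values were seen. Of 55 WRKY probe sets, 12 were 2-fold or more lower in YH leaves and none higher, against the same shares. Among the 3 YH leaves normal P arrays, the 8 WRKY factors left out of the members by name all read highest on replicate 2. WRKY61, for one, read 6.32, 8.01 and 6.41 there. Of 28 GASA probe sets, GASA9, GASA24 and GASA29 were 2-fold or more lower and GASA13 higher.

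GASA29 was also lower in CD leaves at low P, by -2.49 on the log2 scale without passing the test (limma adjusted p = 0.523). In the RefSeq assembly, LOC100804484 lies close to the pair BHLH300 and BHLH320, with 2 and 3 protein-coding genes between. LOC100804484 read 3.62, 2.66 and 3.06 in YH leaves at low P and 4.60, 5.35 and 4.44 at normal P.

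Across the 18 arrays outside YH leaves the members did not form 1 pattern. The median correlation over their 1128 pairs was 0.21, with 171 pairs above 0.8 and 440 below 0, and these arrays share tissue and accession. The pair most alike was LOC100812131 and 12072504 (r = 0.988), both high in roots. 12072504 read 6.56, 6.44 and 6.59 in YH roots low P and 6.47, 6.76 and 6.27 in YH roots normal P, and 6.54, 6.20 and 6.28 in CD roots low P and 5.98, 5.87 and 5.65 in CD roots normal P. In leaves it read 4.17, 4.36 and 4.40 in YH at low P and 5.10, 6.63 and 5.30 in YH at normal P, above 3.71, 4.05 and 3.80 in CD at low P and 4.07, 3.89 and 4.0 in CD at normal P.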

How the data were processed

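Total RNA of 24 samples was labelled and hybridised, and the authors deposited 1 summarised intensity per probe set and array, on a linear scale. The study's methods name RMA and the submitters' processing notes name MAS5 with no version given; the normalization behind the deposited intensity values is therefore unsettled, and no detection calls were used. Intensities were taken to log2 here without further scaling.

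The members and gene lists were chosen with earlier results of these data known. Tests used limma 3.58.1 in R 4.3.3, with 1 mean per group over the 18 arrays outside YH leaves (12 residual degrees of freedom), Benjamini-Hochberg over 75990 probe sets, and calls at an adjusted p below 0.05 and at least 2-fold. The YH leaf arrays were left out since they chose the members. Alternatives were quantile normalization, median centring, dropping the dimmest 33.3% of probe sets, all 24 arrays, separate fits, a replicate block, an adjusted p below 0.01 and leaving out each array.

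Gene symbols came from the platform annotation, and gene IDs of all 31 members with 1 symbol were found in RefSeq (Glycine_max_v4.0), used for names and neighbours only. Named were the 15 highest scores, the 5 largest called differences in each direction per accession or tissue comparison, up to 10 members called per P comparison, members of a list, and the first probe set outside. SNAC41, LOC100779800, the other members of the CD leaf paragraph and the remaining members called between accessions in roots were named after their values were seen. RNA extraction is given as Trizol in the labels and as a plant RNA kit in the methods.

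Replicate numbers were checked as pairs: samples of 1 number deviated together (r above 0.1 for every pair) in CD roots (0.14 to 0.52), YH roots (0.18 to 0.55) and between accessions in normal P roots (0.16 to 0.50), and not in the other comparisons.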

Additional observations from a re-analysis of the deposited data

Results flagged for a closer look

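LOC547581 moved in opposite directions in the roots of the accessions, with every low P array below every normal P array in YH (log2 difference -0.38) and every low P array above every normal P array in CD (0.68). The limma test of the difference between the responses missed the threshold, with an adjusted p of 0.276, and passed it when only the root groups were fitted (0.0484).

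LOC100305446 did the same in leaves. Its low P arrays lay below the normal P arrays in YH (log2 difference -2.20), which chose it, and above them in CD, by 0.14. The difference between the accessions was not tested, and the CD leaf values, 1.44, 1.74 and 1.43 at low P and 1.39, 1.36 and 1.42 at normal P, lay around the lower quartile of the arrays.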

How the results depend on the processing

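The choice of members depended on single arrays. Without 1 of the 6 YH leaf arrays the rule kept between 21 and 45 of the 48, with 21 without normal P replicate 1, 30 without normal P replicate 3 and 22 without low P replicate 1. Quantile normalization kept 43, median centring 48 and a normal P mean of at least 3 kept 40. Leaving out 1 YH leaf array, an alternative added after seeing the data, gave a median log2 difference of -2.14 to -1.50.

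With the replicate number as a block, 1 member (LOC100820615, limma adjusted p = 0.000516) was called lower in CD leaves, where same-numbered arrays did not deviate together (r = -0.04, -0.30 and 0.33); the block moved no other count by over 1.5 times. Separate fits called 1 member in CD roots (LOC100810323) and 1 in the difference of the root responses (LOC547581, limma adjusted p = 0.0484), against 0 each. At an adjusted p below 0.01, 7 members in place of 11 were called between accessions in low P roots. The cause of these changes was not tested. Without 1 array, 0 members were called in each P comparison and in the difference of root responses, 6 to 11 between accessions in normal P roots, 8 to 9 in low P roots and 24 to 28 between CD leaves and roots. Of 46 calls, 31 held under every alternative and 15 were lost under at least 1, and none turned direction. With 3 arrays per group, small differences could not be resolved.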
